A study of Homo sapiens with 4 samples.

Results

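The heat shock proteins of the cytosol and of the mitochondrial matrix are represented here by 10 genes: HSPA1A, HSPA1B and HSPA8 of the HSP70 family, their helpers DNAJB1, HSPH1 and BAG3, the HSP90 gene HSP90AA1, the small heat shock protein gene HSPB1, and the mitochondrial chaperonin pair HSPD1 and HSPE1. They were taken by symbol, not by their values, from a table of 58740 genes. RNA sequencing had been carried out on spheroids of 4 human colon cell lines, 1 library per line. HCEC-1CT is a non-cancer colon line immortalised with CDK4 and TERT; HCT116, DLD-1 and SW620 are colorectal cancer lines, SW620 having come from a lymph node metastasis. All 4 lines carried the label WT and no drug or heat treatment was named. Cells were grown for 7 days on 24-well low-attachment plates in medium with 10% serum. Compact spheroids were picked under a microscope, and the spheroids of 2 plates made up each RNA sample.

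Heat shock proteins are molecular chaperones: they bind unfolded stretches of other proteins and help them to fold, to be held soluble or to be handed to degradation. HSP70 proteins work in cycles of ATP hydrolysis that J-domain proteins start and nucleotide exchange factors end, and they pass part of their clients on to HSP90, which finishes kinases and steroid receptors. Under heat or other proteotoxic stress the factor HSF1 forms trimers on inverted repeats of the unit GAA (heat shock elements) and switches on HSPA1A, HSPA1B, DNAJB1 and other members, whereas HSPA8 is made in unstressed cells throughout the body. In the mitochondrion, HSPD1 builds the chamber and HSPE1 the lid of a folding cage, and their genes lie head to head on one chromosome.

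HSPA1A and HSPA1B are near copies of each other, and their promoters are shown because the table gave the pair very different levels in HCEC-1CT. In RefSeq (GRCh38.p14) the stretches upstream of the annotated first exons, on the plus strand of chromosome 6, read as follows. Capitals mark a match to GAANNTTC, the head-to-head arrangement of 2 GAA units.
HSPA1A, chr6:31815293-31815463: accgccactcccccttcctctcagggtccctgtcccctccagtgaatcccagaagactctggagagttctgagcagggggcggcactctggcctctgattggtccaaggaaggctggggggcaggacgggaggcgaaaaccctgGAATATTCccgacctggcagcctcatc
HSPA1B, chr6:31827488-31827734: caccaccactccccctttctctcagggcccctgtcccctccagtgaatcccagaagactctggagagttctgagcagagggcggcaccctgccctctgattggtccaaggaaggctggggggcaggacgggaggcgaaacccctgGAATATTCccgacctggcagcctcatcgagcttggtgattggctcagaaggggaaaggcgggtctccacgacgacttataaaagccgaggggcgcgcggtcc
Over the 250 bases upstream of their RefSeq starts the promoters were identical at 235 of 251 aligned positions (93.6%). The 30-base stretches around the match differed at 1 base. The mature transcripts were more alike in their coding part: HSPA1A-201 (2483 bases) and HSPA1B-201 (2521 bases) differed at 4 of 1923 coding bases. Their untranslated regions were less alike, at 65.5% identity before the coding part and 49.5% after it. Of all 100-base windows of HSPA1A-201, 69.9% occurred unchanged in HSPA1B-201. Reads from those windows cannot be assigned to one gene by sequence, so the split between both genes is uncertain and their sum is given as well.

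The search was run for GAANNTTC and for TTCNNGAA, the tail-to-tail arrangement, over the 250 bases upstream of all 35116 RefSeq starts. Both are palindromes, so that 1 strand covers the other, and neighbouring matches may overlap. A match to either was found at 11.6% of all starts (5.78% for GAANNTTC and 6.62% for TTCNNGAA), and 1.32% held at least 2 matches. RefSeq listed 14 starts for the 10 genes. Starts with a match belonged to HSPA1A (1 match), HSPA1B (1), HSPA8 (4), DNAJB1 (2 at 1 of its 3 starts), HSP90AA1 (3 at 1 of its 2 starts), HSPB1 (1) and HSPD1 (3 at 1 of its 2 starts). The windows of HSPE1, HSPH1 and BAG3 held none, which covers only the RefSeq starts searched. The HSPD1 window with 3 matches lies inside HSPE1-201, the main HSPE1 transcript, whose annotated start differs from the RefSeq start of HSPE1. HSPH1 was searched upstream of 31162388. Its main transcript, HSPH1-202, starts at 31161927, and the bases next to that start were not searched. These 30-base windows are shown because several lie beside the starts of transcripts described further on, and capitals again mark the matches.
HSPA8, minus strand, chr11:123062345-123062374: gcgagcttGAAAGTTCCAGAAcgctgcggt
HSPA8, minus strand, chr11:123062170-123062199: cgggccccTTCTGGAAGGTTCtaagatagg
DNAJB1, minus strand, chr19:14518456-14518485: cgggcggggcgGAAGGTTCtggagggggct
DNAJB1, minus strand, chr19:14518426-14518455: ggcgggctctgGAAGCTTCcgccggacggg
HSP90AA1, minus strand, chr14:102087104-102087133: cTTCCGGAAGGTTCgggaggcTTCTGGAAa
HSPB1, plus strand, chr7:76302480-76302509: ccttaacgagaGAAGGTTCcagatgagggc
HSPD1, minus strand, chr2:197500061-197500090: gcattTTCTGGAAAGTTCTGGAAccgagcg
A match is a description of letters and not a measured binding site.

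Values are FPKM as the authors deposited them, that is, fragments scaled to transcript length and library depth, so that levels of different genes can be compared per length. Depth was recovered from the smallest steps between low values and came to 23339831 to 29479988 fragments per library. The member with the fewest fragments was HSPA1A in HCEC-1CT, at about 46. With 1 library per line there is no replicate error: no difference below can be set against a spread between cultures, no test was possible, and the order of lines is that of these libraries. A gene is called higher or lower at a 2-fold ratio of FPKM + 1, provided that the higher library has 1 FPKM or more. In bulk RNA, fewer cells of a type and less RNA per cell cannot be told apart.

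The libraries differed widely in cell identity. HCEC-1CT carries an epithelial label, but 5 of 13 epithelial markers (EPCAM, CDH1, KRT19, ESRP1 and GRHL2) were at 0 there, 3 of 13 reached 1 FPKM, and the 13 summed to 10.1 FPKM against 1744 to 7050 in the cancer lines. All 13 fibroblast markers were at least 2-fold lower in each cancer line, with sums of 3.25 to 260 against 1956 FPKM in HCEC-1CT. Endothelial and blood cell markers summed to at most 15.8 and 24.9 FPKM in any line. Of 22 cell cycle genes, 17 were higher in all 3 cancer lines, with sums of 58.2 FPKM in HCEC-1CT and 267 to 770 FPKM in the others. Of 10 immediate early genes, which respond within minutes to handling and serum, EGR1, IER3 and DUSP1 were lower and ZFP36 was higher in all 3 cancer lines, ZFP36 only before rescaling by the median ratio or to TPM. The 13 mitochondrially encoded mRNAs had median log2 ratios of 3.51, 1.03 and 1.66 in HCT116, DLD-1 and SW620, and 20 housekeeping genes had 0.53, 0.41 and 0.42. The part of these differences in the results below was not tested.

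**Figure D1:**
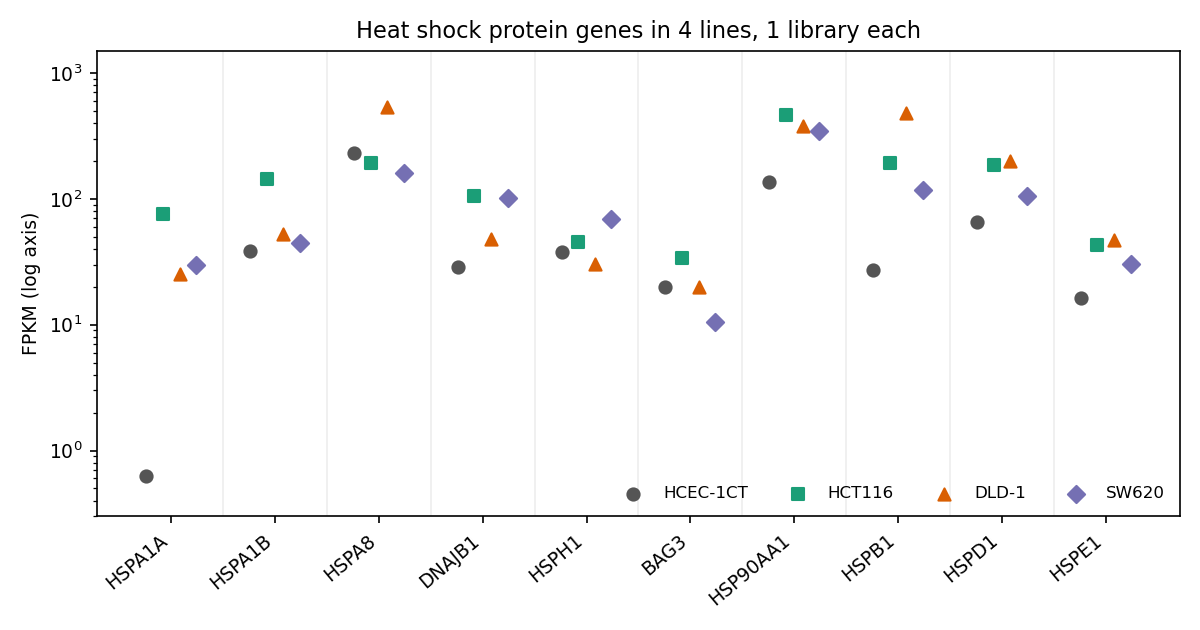
FPKM of the 10 heat shock protein genes (log axis) in HCEC-1CT (grey circles), HCT116 (green squares), DLD-1 (orange triangles) and SW620 (purple diamonds), 1 library per point and no error bars. HSPA1A in HCEC-1CT is the single point below 1 FPKM; the highest points are HSPA8 and HSPB1 in DLD-1.

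Summed, the 10 genes amounted to 1824 FPKM in DLD-1, 1479 in HCT116, 1011 in SW620 and 602 in HCEC-1CT. As a share of all nuclear protein-coding FPKM this was 0.617%, 0.488%, 0.327% and 0.215% in the same order. The sum was lowest in HCEC-1CT, and the makeup differed from line to line. HSPA8 supplied 38.3% of the sum in HCEC-1CT and 29.6% in DLD-1, but HSP90AA1 was the largest part in HCT116 (31.3%) and in SW620 (33.98%). HSPB1 supplied 26.4% in DLD-1 and 4.52% in HCEC-1CT.

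Against HCEC-1CT, 7 of 10 members were higher and 0 lower in HCT116, 6 and 0 in DLD-1, and 4 and 0 in SW620. The background was high: of all genes tested, 30.8% were higher and 15.0% lower in HCT116, 29.3% and 14.6% in DLD-1, and 28.7% and 16.4% in SW620. The 4 of 10 in SW620 is thus not far above the share of all genes. Every member called higher had at least 10 FPKM in its higher library, a level at which 31.4%, 30.8% and 31.1% of all genes were called higher in HCT116, DLD-1 and SW620. HSPA1A, HSP90AA1 and HSPB1 were higher in all 3 cancer lines, as were 9.35% of genes tested, and no member was lower in all 3, as were 7.11%. HSPA1A rests here on its uncertain split from HSPA1B: their sum had log2 ratios of 0.97 in DLD-1 and 0.90 in SW620, under 2-fold. These 3 comparisons share the HCEC-1CT library, so an odd value there would enter all of them. The median log2 ratio of the members in HCT116 was 1.62, beside 0.39 over all genes tested; it was 1.35 beside 0.43 in DLD-1 and 0.85 beside 0.29 in SW620. When each library was rescaled by the median ratio over 10409 genes, which takes 0.38, 0.42 and 0.30 off the log2 ratios, the counts became 6, 5 and 4 higher, and BAG3 became lower in SW620 (4 higher and 1 lower).

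**Figure D2:**
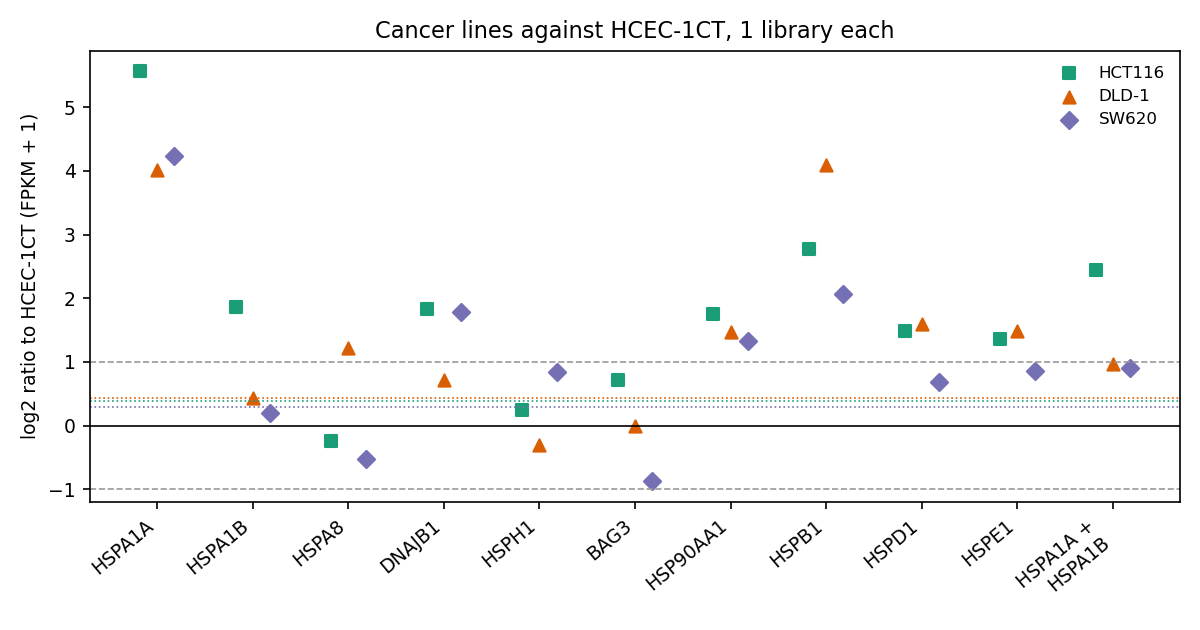
Log2 ratio of FPKM + 1 to HCEC-1CT for each gene and for HSPA1A and HSPA1B summed (right), in HCT116 (squares), DLD-1 (triangles) and SW620 (diamonds), 1 library each. Dashed lines mark 2-fold and dotted lines the median of all genes tested in each comparison. HSPA1A and HSPB1 lie highest, and HSPA8, HSPH1 and BAG3 lie on both sides of 0.

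HSPA1A (ENSG00000204389, chr6:31815464-31817946), the stress-inducible HSP70, measured 76.1 FPKM in HCT116, 29.8 in SW620, 25.5 in DLD-1 and 0.630 in HCEC-1CT. It ranked 11471st of 19892 protein-coding genes in HCEC-1CT and 525th in HCT116. The log2 ratios to HCEC-1CT were 5.56, 4.02 and 4.24 in HCT116, DLD-1 and SW620.

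HSPA1B (ENSG00000204388, chr6:31827735-31830255), which encodes a nearly identical HSP70 protein, measured 143 FPKM in HCT116, 52.7 in DLD-1, 44.5 in SW620 and 38.7 in HCEC-1CT. HCT116 alone was more than 2-fold above HCEC-1CT (log2 ratio 1.86), and the ratios in DLD-1 (0.43) and SW620 (0.19) were close to the median of all genes or below it. In HCEC-1CT, 1.60% of the pair's FPKM was assigned to HSPA1A, against 34.7%, 32.6% and 40.1% in HCT116, DLD-1 and SW620. Part of the HSPA1B value was given to an assembled transcript that spans both genes (chr6:31815415-31830255), at 14.6 FPKM in HCT116, 4.35 in HCEC-1CT, 3.90 in SW620 and 3.77 in DLD-1.

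As a sum, which does not depend on that split, HSPA1A and HSPA1B gave 219 FPKM in HCT116, 78.1 in DLD-1, 74.3 in SW620 and 39.4 in HCEC-1CT. HCT116 was 5.56-fold above HCEC-1CT. DLD-1 and SW620 fell just short of the 2-fold limit, with log2 ratios of 0.97 and 0.90. With the pair taken as 1 gene, 6, 5 and 3 genes of the family were higher in HCT116, DLD-1 and SW620.

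HSPA8 (ENSG00000109971, chr11:123057489-123063230), the constitutive HSP70 that also strips clathrin from vesicles, measured 540 FPKM in DLD-1, 230.4 in HCEC-1CT, 194 in HCT116 and 160 in SW620. DLD-1 stood apart, and the other lines lay within 2-fold of each other, with HCEC-1CT above HCT116 and SW620. The log2 ratios to HCEC-1CT were -0.25, 1.22 and -0.52 in HCT116, DLD-1 and SW620. The call in DLD-1 was lost without division by transcript length (0.98), with median-ratio scaling (0.81) and, by a narrow margin, with protein-coding transcripts only (0.998). Of HSPA8 in DLD-1, 23.9% was assigned to transcripts with a retained intron, against 13.1% in SW620, 11.7% in HCEC-1CT and 2.91% in HCT116. Such a share was highest in DLD-1 for HSPH1 (26.6%) and HSPD1 (15.4%) too, but not for HSPE1, HSP90AA1 or DNAJB1.

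The balance of inducible to constitutive HSP70 set HCT116 apart. The ratio of HSPA1A and HSPA1B together to HSPA8 was 1.13 in HCT116, 0.463 in SW620, 0.171 in HCEC-1CT and 0.145 in DLD-1. The inducible pair was slightly above HSPA8 in HCT116 and was a small fraction of it in HCEC-1CT and DLD-1.

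Among the helpers of HSP70, DNAJB1 (ENSG00000132002, chr19:14514770-14529770), the J-domain protein that drives the HSP70 cycle and feeds back on HSF1, measured 104 FPKM in HCT116, 101 in SW620, 47.8 in DLD-1 and 28.6 in HCEC-1CT. HCT116 and SW620 were nearly equal and more than 2-fold above both other lines, DLD-1 not on a TPM scale. The log2 ratios to HCEC-1CT were 1.83, 0.72 and 1.79. Its main transcript, DNAJB1-201, held 89.5% to 92.4% of the gene in every line, and the nearer of the motif windows shown above ends 6 bases upstream of its start.

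HSPH1 (ENSG00000120694, chr13:31134974-31162388), an HSP110 protein that swaps the nucleotide on HSP70, measured 68.8 FPKM in SW620, 45.3 in HCT116, 37.8 in HCEC-1CT and 30.4 in DLD-1. No cancer line was 2-fold from HCEC-1CT, but SW620 was more than 2-fold above DLD-1. Counting protein-coding transcripts only, HSPH1 in SW620 passed 2-fold over HCEC-1CT as well (23.8% of HSPH1 in HCEC-1CT and 7.41% in SW620 was assigned to retained-intron transcripts).

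BAG3 (ENSG00000151929, chr10:119651370-119677819), a nucleotide exchange factor that leads HSP70 clients to selective autophagy, measured 33.6 FPKM in HCT116, 19.9 in HCEC-1CT, 19.7 in DLD-1 and 10.5 in SW620. HCEC-1CT and DLD-1 were equal, HCT116 lay above them and SW620 below. BAG3 had the lowest log2 ratio of any member in SW620 (-0.87), close to the limit for a lower call. It ranked 1655th among protein-coding genes in HCT116 and 5789th in SW620. Of the 7 genes listed as its partners in selective autophagy, 6 were measured: 0 were higher and 2, 5 and 3 were lower in HCT116, DLD-1 and SW620. The ubiquitin ligase STUB1, which works with BAG3 and HSP70, measured 23.9 FPKM in DLD-1, 19.9 in SW620, 19.3 in HCT116 and 11.9 in HCEC-1CT. The small heat shock protein HSPB8, which BAG3 binds, measured 2.68 FPKM in HCEC-1CT and 5.93 in HCT116, and was listed at 0 in DLD-1 and at 0.0809 in SW620.

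HSP90AA1 (ENSG00000080824, chr14:102080738-102139699), the inducible cytosolic HSP90, measured 463 FPKM in HCT116, 381 in DLD-1, 343 in SW620 and 137 in HCEC-1CT. All 3 cancer lines were within 1.5-fold of each other and more than 2-fold above HCEC-1CT, with log2 ratios of 1.75, 1.47 and 1.32. Its partner HSP90AB1, the constitutive cytosolic HSP90, measured 715 FPKM in HCT116, 384 in DLD-1, 320 in SW620 and 212 in HCEC-1CT. The ratio of HSP90AA1 to HSP90AB1 was 0.644 in HCEC-1CT and 0.647 in HCT116, and 0.993 in DLD-1 and 1.07 in SW620. HCT116 thus had more of both genes at the same proportion as HCEC-1CT, whereas DLD-1 and SW620 had nearly equal amounts of both.

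HSPB1 (ENSG00000106211, chr7:76302544-76304295), the small heat shock protein HSP27 that holds unfolded proteins and associates with actin, measured 482 FPKM in DLD-1, 192 in HCT116, 117 in SW620 and 27.2 in HCEC-1CT. Each cancer line was over 4-fold above HCEC-1CT, with log2 ratios of 2.77, 4.10 and 2.06, and DLD-1 was more than 2-fold above the other cancer lines. By FPKM, HSPB1 was the 1906th protein-coding gene in HCEC-1CT and the 53rd in DLD-1. Of 9 other small heat shock proteins, 2 reached 1 FPKM in any line, HSPB8 and HSPB11; CRYAB, another stress-induced member of that family, stayed at or below 0.13 FPKM.

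The mitochondrial chaperonin genes had the same order of lines. HSPD1 (ENSG00000144381, chr2:197486581-197516737), the chamber subunit HSP60, measured 198 FPKM in DLD-1, 185 in HCT116, 105 in SW620 and 65.2 in HCEC-1CT. HSPE1 (ENSG00000115541, chr2:197499994-197503457), the lid subunit HSP10, measured 47.0 FPKM in DLD-1, 43.0 in HCT116, 30.1 in SW620 and 16.2 in HCEC-1CT. The order was DLD-1, HCT116, SW620, HCEC-1CT. HCT116 and DLD-1 were more than 2-fold above HCEC-1CT in both genes, with log2 ratios of 1.49 and 1.59 for HSPD1 and of 1.35 and 1.48 for HSPE1. HSPE1 in HCT116 was under 2-fold with median-ratio scaling (0.98) and on a TPM scale (0.91). SW620 was below 2-fold in both (0.68 and 0.85), but with the read-through gene HSPE1-MOB4 added to HSPE1 the ratio was 1.08, above 2-fold. The ratio of HSPD1 to HSPE1 stayed between 3.50 and 4.30 in the 4 lines.

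Their profiles were also the closest of all 45 pairs of members. Measured as the Euclidean distance between centred log2 profiles over the 4 lines, HSPD1 and HSPE1 were 0.241 apart, followed by HSP90AA1 and HSPE1 at 0.440 and HSP90AA1 and HSPD1 at 0.581. The largest distance was 4.42, between HSPA1A and HSPA8. The HSPE1 value has 3 limits. HSPE1 and HSPD1 overlap at their starts on opposite strands, and no source used here says whether counting used the strand, so reads of that stretch cannot be told apart. HSPE1 also has 26 pseudogenes in the table, whose FPKM summed to 29.97% of HSPE1 in HCEC-1CT, 20.9% in DLD-1, 7.94% in SW620 and 6.67% in HCT116, so reads could have been split among them. The read-through gene HSPE1-MOB4 shares the locus and measured 9.78 FPKM in SW620, 8.79 in DLD-1, 5.21 in HCT116 and 2.13 in HCEC-1CT. The 17 HSPD1 pseudogenes summed to 1.61% to 4.89% of HSPD1.

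Among the cancer lines the members went in both directions. Between HCT116 and DLD-1, 3 were higher in HCT116 (HSPA1A, HSPA1B and DNAJB1) and 2 lower (HSPA8 and HSPB1), where 18.3% and 20.1% of all genes were. Between HCT116 and SW620, 3 were higher in HCT116 (HSPA1A, HSPA1B and BAG3) and 0 lower, where 16.6% and 14.2% of all genes were. Between DLD-1 and SW620, 2 were higher in DLD-1 (HSPA8 and HSPB1) and 2 lower (DNAJB1 and HSPH1), where 21.1% and 16.2% of all genes were. With every library rescaled to the same FPKM sum (a TPM scale), that last split became 4 higher and 0 lower, and DNAJB1 was under 2-fold between HCT116 and DLD-1 (0.75). The members' median log2 ratios were 0.42, 0.60 and 0.43 in the 3 pairs, beside -0.08, 0.11 and 0.16 over all genes.

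In HSP90AA1, HSPD1 and HSPA8 single transcripts differed more between lines than the gene's sum did. Values per transcript require fragments to be divided among transcripts that share most exons, so these shares are estimates. HSP90AA1-201, which starts at the downstream promoter (the window shown lies just inside its GENCODE start and upstream of the RefSeq start), measured 366 FPKM in HCT116, 325 in SW620, 89.7 in DLD-1 and 36.2 in HCEC-1CT. HSP90AA1-202, which starts at the upstream promoter with no match in its window, measured 278 FPKM in DLD-1, 92.3 in HCEC-1CT, 84.2 in HCT116 and 0.39 in SW620. The first held 79.1% of the gene in HCT116 and 94.7% in SW620, and the second 67.4% in HCEC-1CT and 72.8% in DLD-1.

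HSPD1 divided the lines in the same way. HSPD1-202, whose start lies 14 bases downstream of the window with 3 matches, measured 136 FPKM in HCT116, 59.6 in SW620, 18.1 in DLD-1 and 8.03 in HCEC-1CT. HSPD1-201, which starts farther upstream and has the window inside its locus, measured 146 FPKM in DLD-1, 46.6 in HCEC-1CT, 20.3 in SW620 and 18.7 in HCT116. HSPD1-202 held 73.7% of the gene in HCT116 and 56.7% in SW620, and HSPD1-201 held 71.4% in HCEC-1CT and 73.7% in DLD-1.

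HSPA8-224, whose start lies 10 bases downstream of the first HSPA8 window, measured 172 FPKM in HCT116, 91.0 in HCEC-1CT, 80.6 in SW620 and 23.2 in DLD-1. HSPA8-222, annotated as starting 1959 bases downstream of that window, measured 371 FPKM in DLD-1, 97.8 in HCEC-1CT, 52.0 in SW620 and 9.88 in HCT116. HSPA8-224 held 88.4% of the gene in HCT116 and 50.3% in SW620, against 39.5% in HCEC-1CT and 4.30% in DLD-1. The DLD-1 excess of HSPA8 was thus assigned to HSPA8-222 and to HSPA8-211, a retained-intron transcript at 91.2 FPKM in DLD-1 and at most 3.44 FPKM in the other lines. HSPA8-211 held 16.9% of the gene in DLD-1, 1.44% in SW620 and 0.85% in HCT116, and the second HSPA8 window lies just inside its start. HSP90AA1-201, HSPD1-202 and HSPA8-224 held their largest shares in HCT116 and SW620. These genes and transcripts were picked after their values had been seen. By smaller margins, HSPE1-201 (93.8% and 93.3%) and BAG3-201 (95.2% and 95.6%) did so too, although the searched windows of HSPE1 and BAG3 held no match. DNAJB1-201, HSPB1-201 and HSPA1B-201, whose starts lie downstream of a match, did not. HSPH1 had HSPH1-202 as main transcript in every line, at 78.0% of the gene in SW620, 72.9% in HCT116, 58.7% in HCEC-1CT and 46.0% in DLD-1.

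**Figure D3:**
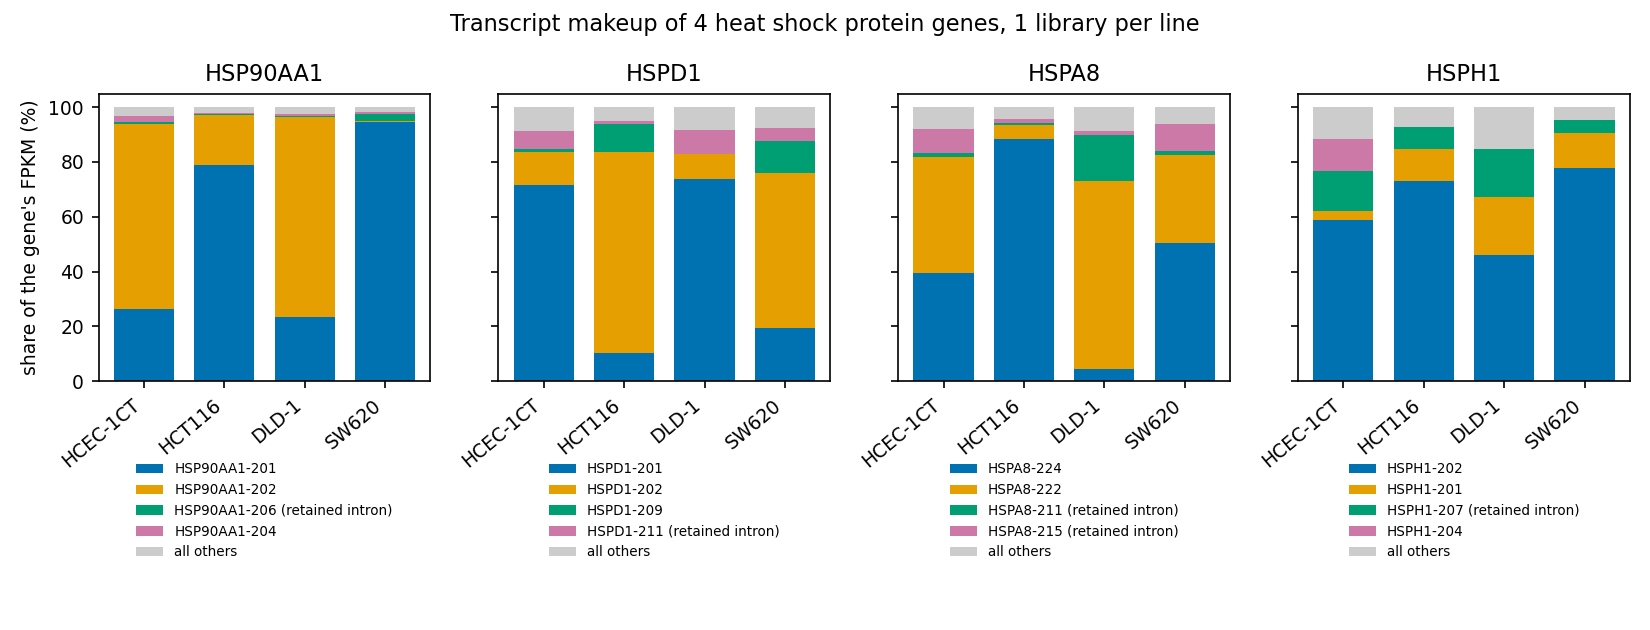
Share of each gene's FPKM (%, stacked to 100) held by its transcripts, 1 library per bar. The main transcript of HSP90AA1 and HSPD1 is the same in HCEC-1CT and DLD-1 and another one in HCT116 and SW620; HSPA8-222 (orange) takes 68.7% of HSPA8 in DLD-1.

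The rest of the chaperone system gives the members their setting. Lists of 7 families held 75 genes, of which 63 reached 1 FPKM in a library. Of these, 24, 14 and 18 were higher and 3, 6 and 5 lower than in HCEC-1CT in HCT116, DLD-1 and SW620. Of all genes tested, 30.8%, 29.3% and 28.7% were higher and 15.0%, 14.6% and 16.4% lower. The share of the families called higher was thus below that of all genes in DLD-1 and near it in SW620. Their median log2 ratios were 0.76, 0.45 and 0.42, beside 0.39, 0.43 and 0.29 over all genes tested. The largest medians among lists of more than 3 genes belonged to TRiC, the cytosolic chaperonin that folds actin and tubulin. Of its 8 subunits, 7, 5 and 4 were higher and 0 lower, with medians of 1.26, 1.03 and 0.98. CCT4, CCT5 and CCT6A were higher in all 3 cancer lines, a count that was 0 with median-ratio scaling and 1 on a TPM scale. The HSP70 and HSP90 co-chaperones had 9, 2 and 6 of 20 higher and 0 lower, with medians of 0.81, 0.40 and 0.48. FKBP5 (18.5 FPKM in HCT116, 5.80 in DLD-1, 5.21 in SW620 and 1.55 in HCEC-1CT) and PPID (27.4 FPKM in HCT116, 24.2 in SW620, 14.6 in DLD-1 and 6.20 in HCEC-1CT), both immunophilins that bind HSP90, were higher in all 3, PPID not with median-ratio scaling.

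Other HSP70 and HSP110 genes had no shared direction: of 8 measured, 3, 1 and 3 were higher and 1, 1 and 1 lower. The lower one was HSPA13 each time, a microsomal HSP70, at 57.0 FPKM in HCEC-1CT and 13.3 to 20.8 FPKM in the cancer lines. HSPA6, an HSP70 gene that is nearly silent without strong stress, was at most 0.71 FPKM in any line. Of 10 measured J-domain genes of class A and B, 2, 1 and 3 were higher and 1, 2 and 1 lower.

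In the mitochondrion the chaperonin pair was not matched by the matrix HSP70. HSPA9, which imports and folds matrix proteins, measured 92.8 FPKM in HCT116, 88.3 in HCEC-1CT, 87.7 in DLD-1 and 67.9 in SW620, the 4 lines lying within 1.5-fold. TRAP1, the mitochondrial HSP90, measured 94.8 FPKM in HCT116, 66.7 in SW620, 47.2 in DLD-1 and 12.2 in HCEC-1CT and was higher in all 3 cancer lines. HSCB, a J-domain protein of iron-sulfur cluster assembly, was lower in all 3. Of 15 mitochondrial folding and protease genes, 2, 4 and 1 were higher and 1, 1 and 1 lower, with medians of 0.57, 0.60 and 0.10.

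Most chaperones of the endoplasmic reticulum, but not all, had ratios of the opposite sign to most cytosolic members. Of 13, 0 were higher in any cancer line and 4, 11 and 6 were lower in HCT116, DLD-1 and SW620, with medians of -0.81, -1.39 and -0.97. HSPA5, the HSP70 of that compartment, measured 646 FPKM in HCEC-1CT, 367 in HCT116, 210 in SW620 and 117 in DLD-1. DNAJB9, CALR and SERPINH1 were lower in all 3, a count of 3 that became 7 with median-ratio scaling and 7 on a TPM scale. HSP90B1, the HSP90 of the same compartment, measured 544 FPKM in HCEC-1CT, above 204 in SW620, 215 in DLD-1 and 298 in HCT116. DLD-1, with the largest member sum, had the lowest HSPA5.

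**Figure D4:**
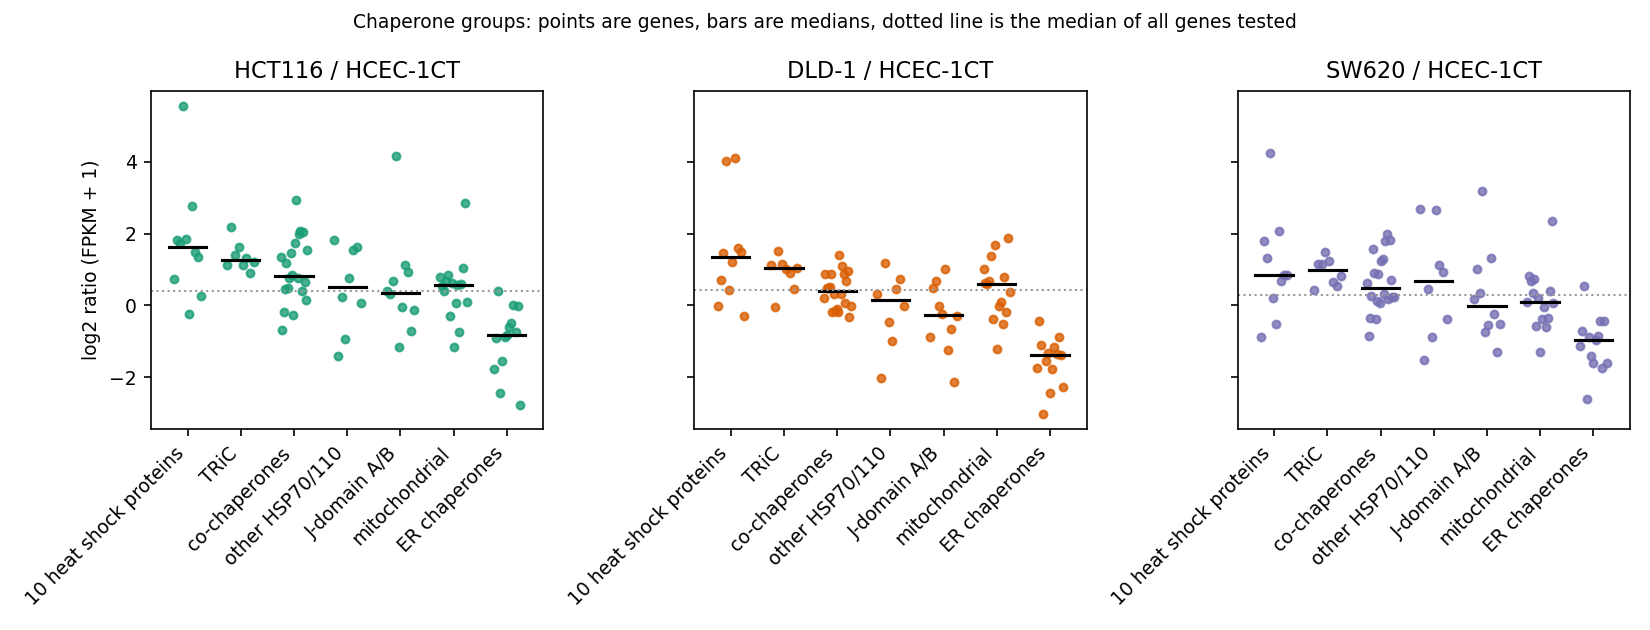
Log2 ratio of FPKM + 1 to HCEC-1CT for every measured gene (points) of the 10 heat shock proteins and 6 chaperone groups, 1 panel per cancer line. Black bars are group medians and the dotted line is the median of all genes tested; the bars of the 10 heat shock proteins and of TRiC lie above that line and those of the endoplasmic reticulum chaperones below 0 in all 3 panels.

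Heat shock factors and further heat-inducible genes were read beside the members. HSF1, the main factor of the response, measured 34.4 FPKM in HCT116, 26.2 in DLD-1, 19.7 in SW620 and 18.4 in HCEC-1CT, within 2-fold throughout. HSF2, a related factor, measured 12.8 FPKM in HCT116, 7.10 in SW620, 3.66 in DLD-1 and 3.05 in HCEC-1CT. It was more than 2-fold above HCEC-1CT in HCT116 (log2 ratio 1.76) and just short of that limit in SW620 (0.9996). With HSF4 and HSBP1, which encodes a protein that binds HSF1, the list held 4 measured genes, of which 2, 0 and 0 were higher and 1, 0 and 1 lower. The higher ones in HCT116 were HSF2 and HSBP1, and the lower one was HSF4. RNA levels do not show whether HSF1 was active. Of 23 measured heat-inducible genes outside the members, some of which the family lists also hold, 13, 4 and 10 were higher and 1, 3 and 3 lower, with medians of 1.14, 0.09 and 0.93. Their median in DLD-1 lay below that of all genes (0.43). CACYBP was higher in all 3 cancer lines under the deposited values (40.9 FPKM in HCT116, 39.5 in SW620, 27.8 in DLD-1 and 10.1 in HCEC-1CT) but not with median-ratio scaling, and SERPINH1, the collagen chaperone, was lower in all 3 (78.3 FPKM in HCEC-1CT, 24.99 in SW620, 15.3 in DLD-1 and 10.5 in HCT116).

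The protein-coding genes whose centred log2 profile over the 4 lines lay closest to each member were found among 8822 genes that reached 10 FPKM in some library. With 4 points per profile such likeness is common and is given as a description. HSPA1A had the poorest matches, F2RL1 at a distance of 0.371 and TPD52 at 0.538. The nearest gene was INPP5F for HSPA1B (0.0755), COL4A3BP for HSPA8 (0.117), TMA7 for DNAJB1 (0.0466), PPP1CA for HSPH1 (0.0474) and RPL9 for BAG3 (0.136). It was TRUB1 for HSP90AA1 (0.0683), EVPL for HSPB1 (0.0700), INTS12 for HSPD1 (0.0808) and PPP1R16A for HSPE1 (0.0701). The next nearest were POLR1E, SCARB2, YBX1, DDX50, ZDHHC8, OMA1, BUB1, IMMT and HACD3 in the same order. TMA7, for example, measured 66.1 FPKM in HCT116, 65.7 in SW620, 31.0 in DLD-1 and 18.7 in HCEC-1CT, the same order of lines as for DNAJB1.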

How the data were processed

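Total RNA of spheroids of 4 lines (1 library each) had been sequenced; FastQC, HISAT2 and the build hg38 are named in the submitters' processing notes. The deposited tables of genes and transcripts hold FPKM made by the authors; the program, annotation, strand setting and filter behind them: not given in the sources used here. Each of the 2 tables has 1 further value column that matched no sample and was not used. Gene identifiers matched GENCODE release 29 in 58275 of 58740 cases, and 7 of 10 members had the same locus in both. The table's loci of HSPA1B, HSPA8 and DNAJB1 reach farther because of assembled transcripts.

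Ratios were taken on log2(FPKM + 1), a scale that understates the change of low genes, and called at 2-fold where the higher library had 1 FPKM or more, over 6 pairs of lines. No test was made. Depth was recovered from the steps between low FPKM values, and counts per gene from it. Named outside the 10 members were genes past 2-fold in the same direction in all 3 cancer lines within a list (the 2 with the largest median log2 ratio where there were more than 6), 9 further genes whatever their values (HSP90AB1, HSPA5, HSPA6, HSPA9, HSF1, HSF2, HSPB8, CRYAB and STUB1), and the 2 genes most like each member; HSPB11, HSP90B1, HSF4, HSBP1, HSPE1-MOB4 and SERPINH1 in the heat-inducible list were named after their values had been seen. The members and lists were chosen with earlier results of these data known. Alternatives were other pseudocounts (0.1 and 5), scalings, folds (1.5 and 4), filters and transcript sets. The code for ratios and calls was checked on simulated data. Python 3.11.15, pandas 2.3.3, numpy 2.4.6 and matplotlib 3.10.9 were used. Promoter sequences came from RefSeq on GRCh38.p14, in which all 10 symbols matched.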

Additional observations from a re-analysis of the deposited data

How the results depend on the processing

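Of 486 member ratios under the alternatives, 295 moved by less than the 95% half-width of their counting error and 191 by more. The setting without a filter on low values cannot move a ratio, so all its ratios are among the 295. Reversal was counted only for ratios called at 2-fold, and of those 0 reversed. The scalings shift ratios by less than 2-fold and a pseudocount cannot change a sign. Under those settings a count of 0 was therefore fixed in advance and says nothing on robustness. Ratios under 2-fold could change sign. HSPH1 in HCT116 against HCEC-1CT went from 0.25 to -0.12 with median-ratio scaling. HSP90AA1 in HCT116 against DLD-1 went from 0.28 to -0.09 on a TPM scale. At 4-fold, 2 members (HSPA1A and HSPB1) were above HCEC-1CT in each of the 3 cancer lines, so 2, 2 and 2. Summed with HSPA1B, HSPA1A passed 4-fold in HCT116 alone (log2 ratios of 2.45, 0.97 and 0.90 in HCT116, DLD-1 and SW620). Between cancer lines at 4-fold, 0 were higher and 0 lower in HCT116 than in DLD-1, 0 were higher in HCT116 than in SW620, and 1 (HSPB1) was higher and 0 lower in DLD-1 than in SW620. At 1.5-fold, 7 were higher and 1 lower (BAG3) in SW620 than in HCEC-1CT, 5 were higher and 1 lower (HSPH1) in HCT116 than in SW620, and 5 were higher in DLD-1 than in SW620. BAG3 was also the 1 lower member in SW620 with median-ratio scaling and on a TPM scale, and on the TPM scale 4 members were higher and 0 lower in DLD-1 than in SW620. Of the pooled chaperone families, a pseudocount of 5 left 3 higher and 1 lower in each cancer line, 2 were higher with median-ratio scaling, and 4 were lower on a TPM scale, against 6 and 2.

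With protein-coding transcripts only, the ratio of HSP90AA1 to HSP90AB1 was 1.02 in SW620, 0.957 in DLD-1, 0.631 in HCT116 and 0.605 in HCEC-1CT. HSPA1A and HSPA1B to HSPA8 gave 1.09 in HCT116, 0.511 in SW620 and 0.183 in DLD-1, HSPA1A to HSPA1B gave 0.593, 0.735 and 0.521 in those lines, and HSPD1 to HSPE1 gave 3.90 in DLD-1. The cause of these shifts was not tested, beyond the removal of non-coding transcripts. The scalings change log2 ratios by -0.46 to -0.08. The values without length division, with HSPA1A and HSPA1B summed and with HSPE1-MOB4 added to HSPE1 were chosen after seeing the data. No paired analysis was possible because each line has 1 library, and for the same reason none could be left out. Depth limits HSPA1A in HCEC-1CT most, at about 46 fragments.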
